A study of Mus musculus with 6 samples.

Results

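The 39 genes described here encode mostly the contractile and actin-bundling machinery of myoepithelial and smooth muscle cells. Also included are 2 transcription factors of that programme, an oxytocin receptor, a caveolar protein and the paralemmin-family protein palmdelphin (Palmd). The 39 were taken from a list of symbols. A gene was read by the probe set annotated to its symbol alone, the brightest one where a symbol had more than 1. All 39 were measured, among 22180 gene symbols in all. The samples were 3 cultures labelled SLK knockout and 3 labelled SLK wild-type. Both kinds are untreated mouse cells derived from NeuNDL tumours, so the activated Neu (ErbB2) receptor is common to both genotypes. SLK, a kinase of the Ste20-like family, is known for its role in cell migration. The labels do not say how the knockout was made or whether each genotype is 1 line or several. The series names 3 culture passages without tying one to an array, so p-values measure the spread between these cultures, which may be technical.

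Myoepithelial cells form the outer, basal layer of the mammary duct and squeeze milk out when oxytocin binds its receptor. Contraction is driven by myosin II pulling on actin filaments, and it is switched on when myosin light chain kinase phosphorylates the regulatory light chain. Smooth muscle actin, transgelin, calponin, caldesmon and tropomyosin decorate or form the thin filament. Many of the genes are controlled by serum response factor (SRF) with myocardin-family coactivators, acting through a short A/T-rich element named the CArG box.

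The promoter sequences are shown because that element is the feature by which these genes are usually grouped. They come from RefSeq (GRCm38.p6), 5′ to 3′ on the gene's strand, and 31 of the 39 genes had a window in that table. Capitals mark the CArG box, CC and GG around 6 letters that are each A or T. In Acta2 they mark boxes with 1 of the 6 central letters being G or C. The full 250 bases before the annotated start are given for Acta2 (chr19:34255374-34255623, minus strand). Shorter stretches around an exact box are given for Srf (chr17:46556190-46556269, minus strand), Cnn2 (chr10:79988519-79988578, plus strand), Myl6 (chr10:128493025-128493084, minus strand) and Myl9 (chr2:156775278-156775337, plus strand).
Acta2: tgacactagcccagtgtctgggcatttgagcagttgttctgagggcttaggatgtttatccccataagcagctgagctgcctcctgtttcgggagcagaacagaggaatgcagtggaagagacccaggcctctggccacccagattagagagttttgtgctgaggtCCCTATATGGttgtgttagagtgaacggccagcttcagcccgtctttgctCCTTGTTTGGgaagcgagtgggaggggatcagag
Srf: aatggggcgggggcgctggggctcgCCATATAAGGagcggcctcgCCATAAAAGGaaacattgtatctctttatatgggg
Cnn2: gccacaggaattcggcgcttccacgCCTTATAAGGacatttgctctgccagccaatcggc
Myl6: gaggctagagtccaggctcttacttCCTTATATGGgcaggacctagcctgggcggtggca
Myl9: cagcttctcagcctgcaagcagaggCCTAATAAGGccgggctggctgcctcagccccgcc

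The box reads as a box on either strand, so 1 search covers both, and exact and near boxes were counted apart. In windows of 250 bases before and 50 after the start, an exact box was found for 4 of the 31 members (12.9%), against 488 of 27025 genes (1.81%) in the table. A box with 1 G or C in its centre was found for 6 of the 31 (19.4%), against 9.69% of all genes. A match of letters shows no binding, and sequence outside these windows was not searched.

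Most of the 39 genes had similar values in knockout and wild-type cells, but 9 lay below the level of the median gene (4.39). These were Synpo2, Pdlim4, Pdlim3, Myocd, Actg2, Tpm2, Cnn1, Oxtr and Tagln. Mylk, Lmod1 and Myh11 (4.41, 4.57 and 4.62 over the 6 arrays) lay little above it. Dim signal limits what similar values show for such genes. Palmd, which encodes palmdelphin, a paralemmin-family protein, fell 1.46-fold in knockout cells. No member rose by this test, although 4 had a higher mean at an unadjusted p under 0.05. Acta2, the smooth muscle alpha actin made by myoepithelial and some other cells, had 1.38-fold lower signal in knockout cells. It missed the threshold at an adjusted p of 0.0552. The other 37 had adjusted p of 0.202 or more. The call rate was 1 of 39 (2.56%), against 0.437% of all genes in either direction and 0.113% for lower calls. The median log2 fold change of the 39 (knockout minus wild-type) was -0.00030, beside 0.0038 over all genes, and 20 of the 39 had the lower mean in knockout cells, as did 48.5% of all genes. All adjusted p-values are from limma with Benjamini-Hochberg adjustment over the 22180 genes, two-sided, and a call is an adjusted p under 0.05.

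The targeted gene was checked first. Slk had log2 values of 7.14, 7.21 and 7.20 on knockout arrays 1 to 3, against 8.21, 8.30 and 8.34 on wild-type arrays 1 to 3. It was lower on every knockout array (log2 fold change -1.10, limma adjusted p = 0.0021). Array medians lay between 3.93 and 3.97 on the log2 scale, and no array stood apart (Pearson's r between arrays 0.990 to 0.994 across probe sets). Of the epithelial markers, the luminal keratins Krt8 and Krt18 averaged 10.5 and 10.6 in knockout cells and 10.3 and 10.5 in wild-type cells. The basal keratin Krt14 averaged 7.72 ± 0.03 and 8.38 ± 0.07 (SD, n = 3 each), while the basal regulator Trp63 was dim at 3.01 and 3.09, against 4.39 for the median gene over the 6 arrays. Also dim were the basal keratin Krt17 (3.57 and 3.67, with overlap) and the luminal keratin Krt19 (3.59 and 3.51), in the same order. Krt5 was not analysed here.

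**Figure D1:**
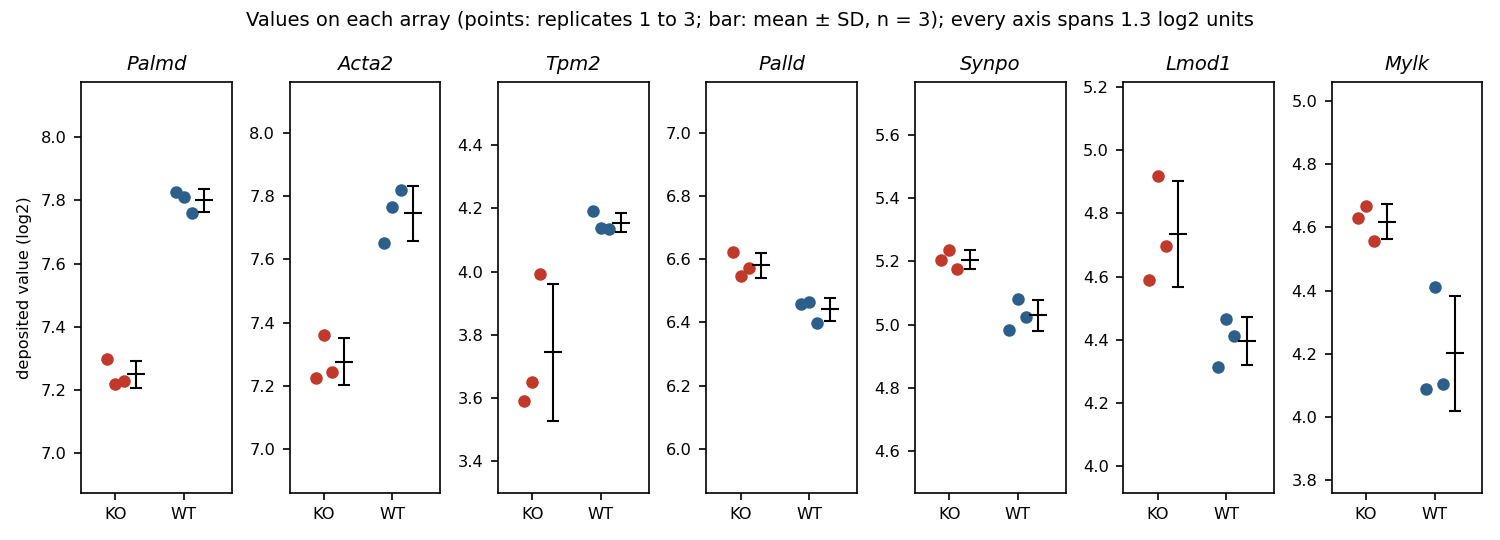
Deposited log2 values (vertical axes, each spanning the same range) of the 7 members with an unadjusted p under 0.05, on 3 knockout (KO, red) and 3 wild-type (WT, blue) arrays, with mean and SD (n = 3) as black bars. Palmd, Acta2 and Tpm2 lie lower and Palld, Synpo, Lmod1 and Mylk higher on every KO array than on any WT array, and Palmd alone passed adjustment over all genes.

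Palmd (probe set 17409792) had log2 values of 7.30, 7.22 and 7.23 on knockout arrays 1 to 3, against 7.83, 7.81 and 7.76 on wild-type arrays 1 to 3. All 3 knockout values lay below all 3 wild-type values, and replicates of a genotype differed little. The log2 fold change was -0.55 (SE 0.05, 95% interval -0.67 to -0.43, limma adjusted p = 0.0147). In a limma fit over all 41345 probe sets, the same probe set was not called (adjusted p = 0.0815). The call did not survive the loss of any 1 array, where the adjusted p lay between 0.0628 and 0.0907 and the log2 fold change between -0.58 and -0.54.

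Of the smooth-muscle actins, Acta2 (probe set 17364098) had log2 values of 7.22, 7.36 and 7.24 on knockout arrays 1 to 3, against 7.65, 7.77 and 7.82 on wild-type arrays 1 to 3. The groups did not overlap, and the gap between them was wider than the spread within either. The log2 fold change was -0.47 (SE 0.07, 95% interval -0.63 to -0.31, limma adjusted p = 0.0552). The gene passed the threshold under 6 of 15 alternatives and not with any array left out. Actg2, the gamma actin of visceral smooth muscle, was dim, with 3.97, 3.92 and 3.57 on knockout arrays and 3.80, 3.62 and 3.93 on wild-type arrays. Its groups overlapped, its log2 fold change was 0.04 (95% interval -0.27 to 0.35), and this direction turned in 3 of the 6 fits that left out an array.

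Markers of other cells were set beside these genes, because smooth muscle actin is also made by vascular mural cells and activated fibroblasts. In bulk RNA, fewer cells of a type and less RNA per cell cannot be told apart. Of 17 vascular smooth muscle and pericyte markers 1 fell, the receptor gene Pdgfrb, at 6.67 ± 0.04 in knockout and 7.33 ± 0.04 in wild-type cells (SD, n = 3 each, limma adjusted p = 0.0066). The Pdgfrb call was lost without wild-type array 2 (0.0503). By the same test 0 rose, with 3 higher and 2 lower at an unadjusted p under 0.05. The summed level of that list, as the log2 of added linear values, spanned 9.38 to 9.44 on knockout arrays and 9.40 to 9.47 on wild-type arrays. Such a sum weighs bright genes most, here Itga8 (8.31 in knockout, 7.99 in wild-type cells), which differed in the direction opposite to Pdgfrb. Of the list's defining markers, Rgs5 (2.47 in knockout, 2.40 in wild-type cells) and Des, or desmin (3.31 and 3.22), were dim in both genotypes. So were Kcnmb1 (3.35 and 3.27) and Notch3 (4.12 and 4.17), against 4.39 for the median gene. Cspg4 (4.78 and 4.80) and Pdgfrb lay above that level. Of 15 fibroblast markers 0 passed in limma (2 higher and 6 lower at an unadjusted p under 0.05), with 6 lower and 3 higher on every knockout array. Over all genes 5.75% were higher and 4.47% lower at that p, and 8.79% were higher and 8.1% lower without overlap. Their summed level spanned 10.05 to 10.15 in knockout and 10.13 to 10.22 in wild-type cells. The collagen genes Col6a2, Col1a1, Col6a1, Col1a2 and Col3a1 were lower on every knockout array. Their log2 fold changes were -0.39, -0.33, -0.22, -0.19 and -0.19, with limma adjusted p from 0.160 to 0.379. The 3 higher genes were the proteoglycan gene Dcn (0.43), Postn (0.37) and Pdgfra (0.10), with limma adjusted p of 0.104, 0.110 and 0.559. The other 6 overlapped and lay below the level of the median gene. Among them were the defining markers Lum (2.24 in knockout, 2.40 in wild-type cells) and Thy1 (4.23 and 4.20). The part of other cell types in the Acta2 and Palmd values was not tested.

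The thin-filament proteins showed no common direction. Of the 8 genes 0 passed in limma (1 at an unadjusted p under 0.05), 4 had a lower and 4 a higher mean in knockout cells, and the median log2 fold change was 0.02. Lmod1, a leiomodin that nucleates actin filaments in smooth muscle, had log2 values of 4.59, 4.92 and 4.70 on knockout arrays and 4.31, 4.47 and 4.41 on wild-type arrays. Every knockout value was above every wild-type value. Its log2 fold change was 0.34 (95% interval 0.11 to 0.56, limma adjusted p = 0.288).

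Calponins bind actin and inhibit the myosin ATPase, and Cnn1 was measured with less precision (SE 0.18) than its paralogs Cnn2 and Cnn3 (SE 0.05 each). Cnn1, the smooth muscle calponin, had 3.92, 4.13 and 3.48 on knockout arrays, against 3.99, 4.33 and 4.04 on wild-type arrays. The low value on knockout array 3 set most of its difference, and the groups overlapped (log2 fold change -0.27, 95% interval -0.70 to 0.15). With knockout array 3 left out the log2 fold change was -0.09. Cnn2 had 9.77, 9.70 and 9.74 in knockout and 9.65, 9.66 and 9.65 in wild-type cells, a small difference of 0.08 without overlap (limma adjusted p = 0.631). Cnn3 averaged 10.60 ± 0.03 in both genotypes (SD, n = 3 each), with a 95% interval of -0.12 to 0.12.

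Tagln, the transgelin gene often used beside Acta2 as an early smooth muscle marker, had 4.33, 4.47 and 4.20 on knockout arrays and 4.36, 4.44 and 4.47 on wild-type arrays. The groups overlapped, and the log2 fold change was -0.09 (95% interval -0.28 to 0.10). Its broadly expressed relative Tagln2 had log2 fold changes of 0.04 for the probe set kept and 0.10 for a dimmer one. The caldesmon gene Cald1 (0.04) and the smoothelin gene Smtn (-0.01) had intervals within 0.16 of 0 on the log2 scale, and a dimmer second probe set of Smtn had 0.08.

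**Figure D2:**
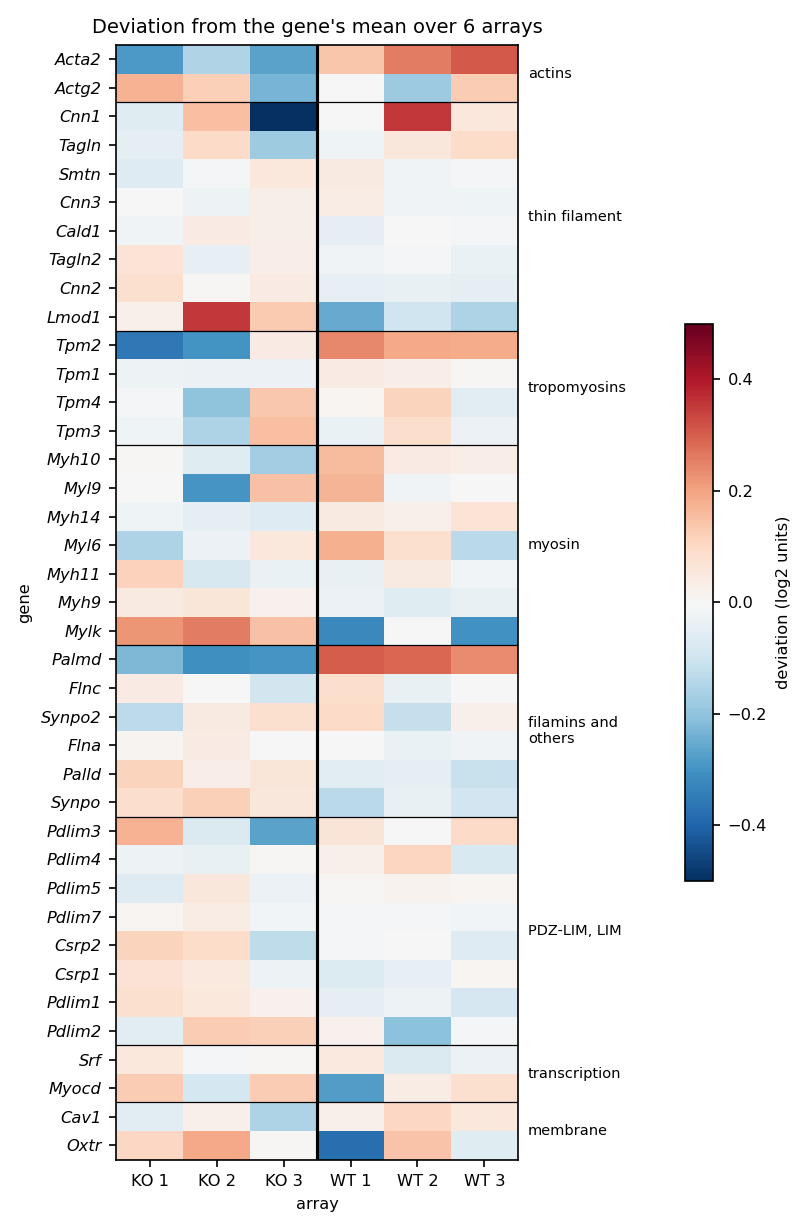
Heat map of the 39 genes (rows, by role) on the 6 arrays (columns, knockout, KO, left and wild-type, WT, right). Colour is the deviation in log2 units from the gene's mean over the 6 arrays, red above and blue below. Palmd and Acta2 separate the genotypes, Cnn1 is lowest on KO array 3, and Tpm3 and Tpm4 are lowest on KO array 2 and highest on KO array 3.

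Tropomyosins lie along the actin filament and set which myosins and calponins reach it. All 4 genes had lower means in knockout cells and 0 passed in limma (1 at an unadjusted p under 0.05), with a median log2 fold change of -0.05. Tpm2, the beta tropomyosin gene, had log2 values of 3.59, 3.65 and 3.99 on knockout arrays and 4.19, 4.14 and 4.14 on wild-type arrays. The knockout arrays were all lower but spread widely, and knockout array 3 lay close to wild-type. The log2 fold change was -0.41 (95% interval -0.67 to -0.15, limma adjusted p = 0.256), and without knockout array 3 it was -0.53. Tpm1 had 8.98 on each knockout array, against 9.05, 9.04 and 9.01 on wild-type arrays, a difference of -0.05 without overlap (limma adjusted p = 0.751).

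Tpm3 and Tpm4, which encode cytoskeletal tropomyosins, varied between replicates, and the genotypes overlapped. Tpm4 had 9.91, 9.72 and 10.06 on knockout arrays and 9.93, 10.03 and 9.87 on wild-type arrays. Tpm3 had 8.93, 8.79 and 9.10 on knockout arrays and 8.91, 9.03 and 8.92 on wild-type arrays. For both genes knockout array 2 was the lowest of the 6 and knockout array 3 the highest. Their 95% intervals reached from -0.28 to 0.18 for Tpm4 and from -0.23 to 0.19 for Tpm3. Dimmer second probe sets gave log2 fold changes of -0.06 for Tpm4 and 0.15 for Tpm3, the last opposite in sign to the probe set kept (-0.02).

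Among the myosin genes 0 of 7 passed in limma (1 at an unadjusted p under 0.05), and the kinase that activates myosin had the largest difference of the group. Mylk, or myosin light chain kinase, had log2 values of 4.63, 4.67 and 4.56 on knockout arrays, against 4.09, 4.41 and 4.11 on wild-type arrays. The knockout arrays were all higher, with wild-type array 2 nearest to them. The log2 fold change was 0.42, or 1.33-fold (95% interval 0.19 to 0.65, limma adjusted p = 0.202), and without wild-type array 2 it was 0.52.

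The myosin heavy chains differed by 0.15 log2 units or less. Myh9, the non-muscle myosin IIA heavy chain, averaged 10.59 ± 0.02 in knockout and 10.51 ± 0.02 in wild-type cells (SD, n = 3 each). Myh10, the IIB chain, averaged 6.22 ± 0.09 and 6.37 ± 0.07, and Myh14, the IIC chain, 5.36 ± 0.02 and 5.45 ± 0.02 in the same order. Myh9 was higher and Myh10 and Myh14 lower on every knockout array, with limma adjusted p of 0.605, 0.518 and 0.565. Myh11, the smooth muscle heavy chain and a late marker of contractile differentiation, averaged 4.63 ± 0.10 in knockout and 4.62 ± 0.04 in wild-type cells (95% interval of the log2 fold change -0.16 to 0.16). The light chain genes Myl9 (-0.10) and Myl6 (-0.08) overlapped between genotypes. How far their probes also read close relatives such as Myl12a and Myl12b was not tested.

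Filamins and the synaptopodins crosslink actin, and palladin is a scaffold of stress fibres. Palmd, of the paralemmin family, was counted in this group of 6. It was the 1 gene that fell in limma, and 0 rose, with 2 higher at an unadjusted p under 0.05. Palld had log2 values of 6.62, 6.55 and 6.57 on knockout arrays and 6.46, 6.47 and 6.40 on wild-type arrays. Synpo had 5.20, 5.24 and 5.17 on knockout arrays and 4.98, 5.08 and 5.02 on wild-type arrays. Both were higher on every knockout array by small steps, at log2 fold changes of 0.14 and 0.18 (limma adjusted p = 0.420 and 0.313). Flna, the abundant filamin gene, averaged 10.26 ± 0.02 in knockout and 10.23 ± 0.02 in wild-type cells (95% interval of the log2 fold change -0.07 to 0.15). The muscle filamin Flnc (-0.03) and Synpo2 (-0.0023) overlapped between genotypes.

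The PDZ-LIM and LIM-only proteins tether signalling proteins to alpha-actinin and stress fibres. Of the 8 genes 0 passed in limma, nor did any at an unadjusted p under 0.05. The log2 fold changes ran from -0.11 for Pdlim3 to 0.13 for Pdlim2, and the groups of 7 overlapped. The exception was Pdlim1, with 9.76, 9.73 and 9.70 on knockout arrays and 9.63, 9.65 and 9.59 on wild-type arrays (log2 fold change 0.10, limma adjusted p = 0.529). Pdlim4, Pdlim5, Pdlim7, Csrp1 and Csrp2 had log2 fold changes between -0.04 and 0.07.

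The 2 regulators among the members, Srf and Myocd, overlapped between genotypes, and 0 of the 2 had an unadjusted p under 0.05. Of the other myocardin-family coactivators, Mrtfa was higher on every knockout array (log2 fold change 0.17, limma adjusted p = 0.442). Mrtfb (0.06) overlapped between genotypes. Srf, whose own promoter holds a pair of the exact boxes shown above, averaged 8.09 ± 0.03 on knockout arrays and 8.05 ± 0.06 on wild-type arrays (SD, n = 3 each), with overlap (95% interval of the log2 fold change -0.10 to 0.17). Myocd, the SRF coactivator of smooth and cardiac muscle, had 3.79, 3.57 and 3.79 on knockout arrays and 3.38, 3.70 and 3.74 on wild-type arrays. It was dim with wide overlap (95% interval -0.16 to 0.38). Of the members with an exact box, Srf, Cnn2, Myl6 and Myl9 had log2 fold changes of 0.04, 0.08, -0.08 and -0.10, and 0 of the 4 passed in limma or at an unadjusted p under 0.05.

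The membrane proteins also overlapped between genotypes. Oxtr, the oxytocin receptor that triggers myoepithelial contraction, had 4.34, 4.42 and 4.24 on knockout arrays and 3.85, 4.38 and 4.17 on wild-type arrays. The low first wild-type array carried most of its log2 fold change of 0.20 (95% interval -0.12 to 0.52), which was 0.06 without that array. Cav1, the caveolin that coats membrane pits of contractile cells, had 9.44, 9.52 and 9.34 on knockout arrays and 9.52, 9.60 and 9.55 on wild-type arrays (log2 fold change -0.12, limma adjusted p = 0.585).

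**Figure D3:**
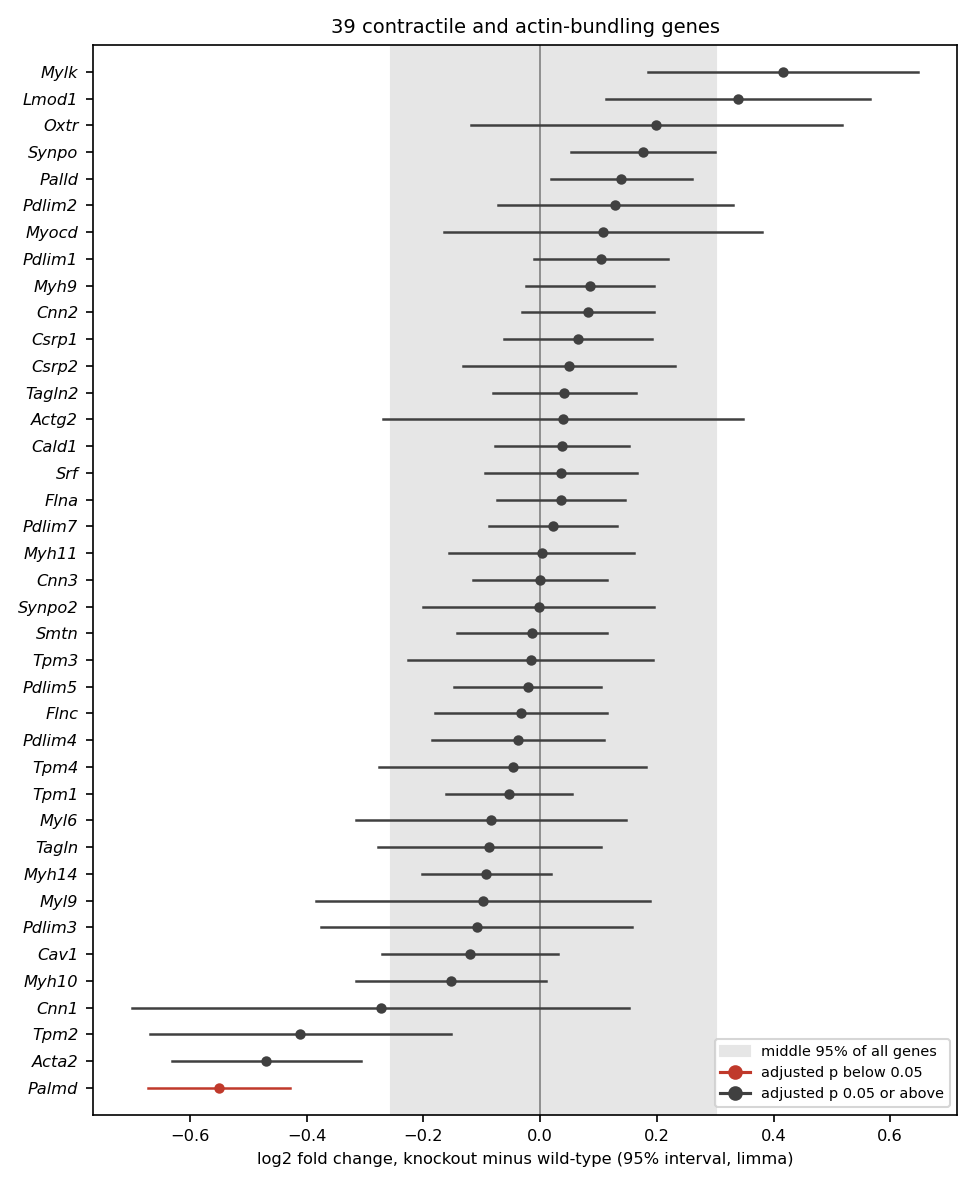
Log2 fold changes (knockout minus wild-type, horizontal axis) of the 39 genes (rows) with 95% limma intervals. The grey band holds the middle 95% of all 22180 genes, from -0.26 to 0.30, and 6 of the 39 lie outside it: Palmd (red, the only call), Acta2, Tpm2 and Cnn1 below, Lmod1 and Mylk above.

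The intervals describe the measured signal and the spread between these cultures, which may be technical. For dim genes, whose fold changes are compressed, a narrow interval does not bound the change in RNA. Of the 38 members without a call, 27 had a 95% interval that lay wholly inside a 1.25-fold change either way, and 34 inside a 1.5-fold change. Those reaching past 1.5-fold were Acta2, Cnn1, Mylk and Tpm2. None of the 38 intervals reached 2-fold. The dim genes Synpo2, Pdlim4 and Tagln were among those inside 1.25-fold. Over all genes 62.7% of the intervals lay inside 1.25-fold and 94.2% inside 1.5-fold. The members' standard errors ran from 0.05 to 0.18, with the widest belonging to Cnn1.

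Smaller differences were common in both directions. Of the 39 genes 7 had an unadjusted p under 0.05 (17.9%), against 10.2% of all genes. For 4 of them the mean was higher in knockout cells, against 5.75% of all genes, and for 3 it was lower, against 4.47%. The groups did not overlap for 14 of the 39 (35.9%), 8 higher and 6 lower, against 16.9% of all genes (8.79% higher and 8.1% lower). Of the 39, 30 lay above the median gene's level. Of these 30, 13 had separate groups (43.3%), against 23.4% of all genes above that level. The dim members had lower precision, so a low value here shows neither that a gene was off nor that it was equal.

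**Figure D4:**
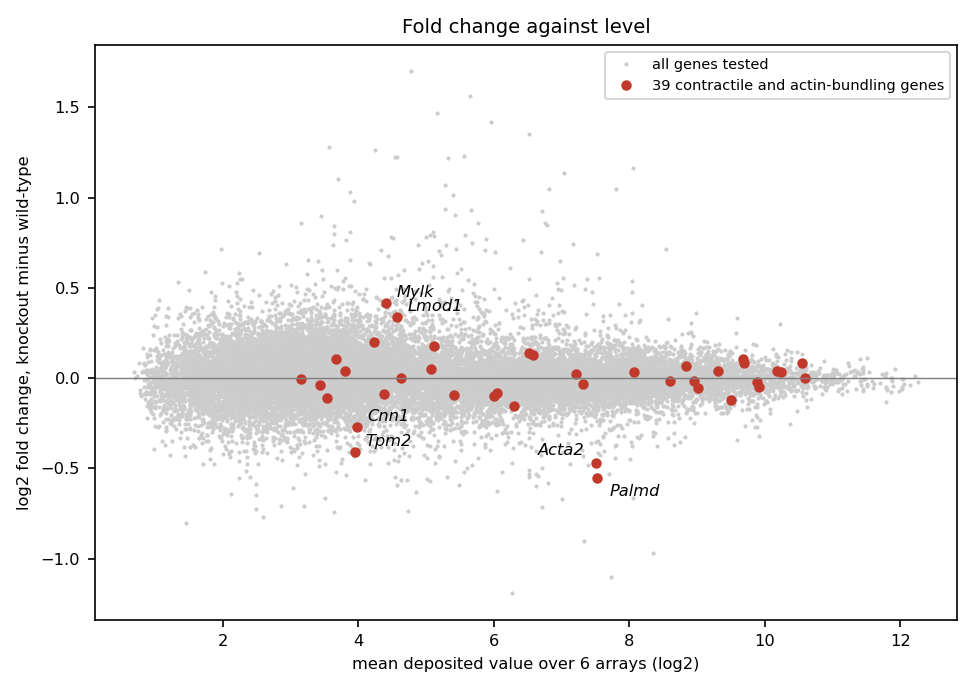
Log2 fold change (knockout minus wild-type, vertical axis) against the mean deposited log2 value over 6 arrays (horizontal axis) for 22180 genes (grey) and the 39 contractile and actin-bundling genes (red). Palmd and Acta2 lie below most genes of like level, at -0.55 and -0.47, while the brightest members lie close to 0.

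Other genes of the same pathway were taken from lists. Of 23 SRF and MRTF partners and targets 0 passed in limma (3 higher and 3 lower at an unadjusted p under 0.05), with a median log2 fold change of 0.0092. Their smallest p-values belonged to the fibronectin receptor subunit Itga5 (0.25), the matricellular gene Ccn2 (-0.23) and the immediate early gene Egr1 (-0.37), with limma adjusted p of 0.135, 0.231 and 0.301. Of 26 further actin-bundling and crosslinking genes 0 passed in limma (2 higher and 1 lower at an unadjusted p under 0.05), with a median of 0.03. Enah, which extends actin filaments at adhesions, was dim and had 0.60 (limma adjusted p = 0.148), the supervillin gene Svil 0.17 and the fascin gene Fscn1 -0.11. Without overlap were 3 higher and 5 lower of the 23, and 6 higher and 3 lower of the 26. Over all genes 5.75% were higher and 4.47% lower at an unadjusted p under 0.05, and 8.79% higher and 8.1% lower without overlap.

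Of 22 measured basal and myoepithelial genes outside the contractile set, 1 rose (Mme, log2 fold change 1.42) and 2 fell (Krt14, -0.66, and Id4, -0.44), with a median of 0.01. At an unadjusted p under 0.05, 8 of the 22 were higher and 3 lower, against 5.75% and 4.47% of all genes. The same counts had groups without overlap, against 8.79% higher and 8.1% lower over all genes. With 1 array left out Id4 lost its call each time (limma adjusted p 0.0984 to 0.176), and Krt14 kept it in 1 of the 6 fits (0.0453 to 0.0725), while Mme kept it in all 6. Of 16 luminal markers Cdh1 fell (-0.43, limma adjusted p = 0.0224) and 0 rose, with 2 higher and 5 lower at an unadjusted p under 0.05. The Cdh1 call was lost whichever array was left out (0.0984 to 0.127) and with the mean of its probe sets (log2 fold change -0.27, limma adjusted p = 0.453). Epcam and Cldn7 had -0.35 and -0.48 (0.0826 and 0.110), and the median was 0.0065. The 2 higher genes were the bright keratins Krt8 (0.15) and Krt18 (0.14), both higher on every knockout array (limma adjusted p = 0.366 and 0.399). Of 17 skeletal and cardiac muscle markers 0 passed in limma (1 lower at an unadjusted p under 0.05), with a median of 0.09, and their summed level spanned 8.59 to 8.65 on knockout and 8.51 to 8.54 on wild-type arrays. The smallest p-values there belonged to Mb (-0.18), Myh1 (0.27) and Pax7 (0.16). After Pdgfrb and Dcn, the mural and fibroblast genes next by p were Itga8 (0.32), Mcam (-0.28), Postn (0.37) and Mfap5 (-0.35). All had limma adjusted p above 0.05, and the medians of the mural and fibroblast lists were -0.02 and -0.07.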

How the data were processed

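Total RNA of 6 mouse cultures was labelled with biotin and hybridised to 1-colour arrays. The authors deposited a table of log2 values for 41345 probe sets, made with Affymetrix Expression Console 1.4.1.46 per the submitters' processing notes. For background correction, normalization and logarithm base no source used here gives a statement. Base 2 was inferred, since the highest value (12.4) exceeds the natural log of a 16-bit limit (11.1). Medians and quartiles were nearly equal, so the values were used as deposited. They carry no detection calls. Such values compress fold changes, mostly of dim genes.

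Names came from the platform's annotation table, in which 23521 probe sets had 1 symbol, 1814 several and 16010 were unlisted. One probe set per symbol, the brightest, was tested with limma 3.58.1 in R 4.3.3 (lmFit, eBayes, no trend or covariate, threshold 0.05). On simulated arrays of 22180 genes it recovered 49 of 100 genes changed by 0.5 and 85 of 100 changed by 1 log2 unit, with 4 false calls. The simulation drew independent normal noise with each gene's observed SD, without array effects or compression of dim genes. Its rates may therefore not hold for these arrays. Probes differ in brightness, so a gene was set only against the median gene, as a guide to how dim its signal was, and genes were not ranked by level.

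The members and gene lists were chosen with earlier results of these data known. Named were all 39 members, and from each other list the calls and the 3 smallest p-values, besides Slk, Krt5, Krt8, Krt14 and Krt18. One of the lists is not reported here. Defining cell type markers are named as checks. Col1a1, Col1a2, Col3a1, Col6a1, Col6a2, Mrtfa and Mrtfb were added after their values were seen. Alternatives are in the closing section. Figures were drawn with matplotlib 3.10.9.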

Additional observations from a re-analysis of the deposited data

How the results depend on the processing

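Among 15 alternatives Palmd and Acta2 were the only members called in any, and both kept their sign in all. Apart from these 15, a limma fit over all 41345 probe sets called neither (adjusted p 0.0815 for Palmd and 0.211 for Acta2). The count of lower members was 1 in the report. It was 2 with median centring, an intensity trend (robust or not), array weights, or without the dimmest 30% or 50% of genes, and 0 with the replicate block and with any array left out (0 to 0). The Palmd adjusted p was 0.139 and the Acta2 adjusted p 0.206 with the replicate block. The labels do not say whether same-numbered arrays are pairs. Same-numbered arrays had correlations of -0.07 to 0.04 between deviations from their group means, against -0.117 to 0.106 for arrays of different numbers. Not every array correlated best with its own number. With 3 arrays in each group, these values cannot exclude a shared effect of replicate number. The counts over all genes were 72 higher and 25 lower in the report. They were 143 and 63 without the dimmest 30%, 202 and 139 without the dimmest 50%, 265 and 176 with an intensity trend, 264 and 179 with a robust trend, and 5 and 1 with the replicate block. With 1 array left out they ran from 13 to 24 higher and from 2 to 5 lower, and fewer arrays were tested there. The cause of the other moves was not tested. The members' median (-0.00030) was -0.037 with median centring, which moved the median of all genes to -0.033, 0.012 without the dimmest 50%, 0.022 with means of probe sets, and -0.00424 to 0.0159 with 1 array left out.

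Of the 39 members 23 kept their sign throughout, and each of the other 16 had a log2 fold change within 0.11 of 0 in the report. With quantile normalization the sign turned for Cnn3 (0.0095), Myh11 (-0.0405) and Pdlim5 (0.000057). With median centring it turned for Cald1 (-0.00015), Myh11 (-0.0346), Flna (-0.0016), Pdlim7 (-0.0156) and Srf (-0.0016), with means of probe sets for Smtn (0.0321) and Tpm3 (0.0684), and with array weights for Cnn3 (0.0038). With 1 array left out the log2 fold changes of those whose sign turned ran from -0.0422 to 0.166 for Actg2, -0.0142 to 0.0186 for Cnn3, -0.0436 to 0.0138 for Smtn, -0.0544 to 0.0428 for Myh11, -0.0603 to 0.062 for Synpo2, -0.056 to 0.0047 for Pdlim5, -0.0965 to 0.0572 for Tpm3, -0.127 to 0.041 for Tpm4, -0.195 to 0.0249 for Myl9, -0.0625 to 0.0051 for Flnc, -0.0053 to 0.18 for Myocd and -0.0851 to 0.0069 for Pdlim4. The number of arrays and the low signal of dim genes limit these values.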
